A study of Mus musculus with 6 samples.

Results

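RNA levels of the numbered Zfp genes were compared between mouse embryonic stem cells with and without Sirt1, the gene of an NAD-dependent protein deacetylase. The members are the genes whose symbol is Zfp followed by exactly 3 digits and that had a probe set naming no other gene. They were chosen by name, with earlier results of these data known, and there were 263 of them among 18193 genes with a symbol of their own. Each gene was read on 1 probe set, the one with the highest mean over all 6 arrays. That mean chose the probe set and is given below only as a description. The cells were R1 embryonic stem cells of the strain (129X1 x 129S1)F1, either Sirt1+/+ (wild type, 3 samples) or Sirt1-/- (knockout, 3 samples). Both were kept on dishes coated with 0.1% gelatin in high-glucose medium with 15% serum and 100 IU/ml of leukaemia inhibitory factor, a cytokine that sustains self-renewal. For each sample 100 ng of total RNA was labelled and hybridised to 1 Affymetrix 3′ expression array. The labels name 1 source of cells per genotype, so what Sirt1 loss does and what else differs between the sources cannot be told apart. They do not say whether the 3 samples of a genotype were separate cultures. The p-values therefore cover only the spread seen among these arrays, and that spread may be technical.

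Zfp is a naming root for mouse zinc finger proteins. Most of them carry tandem C2H2 fingers, small folds held by a zinc ion that read DNA bases, and many also carry a KRAB box, which recruits the corepressor KAP1 (gene Trim28). Through KAP1 and the histone methyltransferase SETDB1 such proteins place repressive chromatin on retroelements and at imprinted loci in embryonic stem cells. KRAB zinc finger genes arose by repeated duplication and often lie side by side in clusters, so neighbouring members can have similar sequences. The numbered names also take in proteins that act on RNA, ribosomes or the spindle. Protein sequences were not used here, so the members were not sorted by fingers or KRAB box.

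Promoters of 7 members are shown first, because some short promoter words were more frequent in the members than among all genes. Each stretch covers 300 bases, from 250 before to 50 after the start of the first listed RefSeq promoter entry, on GRCm38.p6 and read 5′ to 3′ on the gene's strand. Capitals mark the words TGTCACTC, CCAATCA (which holds the CCAAT box) and AATGTAGT on either strand. None of these words contains another. The first 5 belong to members with large changes in the knockout, 4 lower and 1 higher, and the last 2 carry AATGTAGT and moved in opposite directions. The 7 were picked for display, and each carries at least 1 of the words. Neither TGTCACTC nor CCAATCA was found for Zfp991, which rose most. Nor was either found for the large falls Zfp770, Zfp942, Zfp934, Zfp229, Zfp493 and Zfp566.
Zfp975, chr7:42692669-42692968, minus strand, lower in knockout: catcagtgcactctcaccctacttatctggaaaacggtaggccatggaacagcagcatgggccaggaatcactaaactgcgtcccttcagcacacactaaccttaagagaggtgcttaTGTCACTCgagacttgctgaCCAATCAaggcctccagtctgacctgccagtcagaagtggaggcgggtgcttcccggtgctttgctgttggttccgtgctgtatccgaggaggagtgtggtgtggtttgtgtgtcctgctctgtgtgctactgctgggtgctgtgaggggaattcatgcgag
Zfp936, chr7:43177340-43177639, plus strand, lower in knockout: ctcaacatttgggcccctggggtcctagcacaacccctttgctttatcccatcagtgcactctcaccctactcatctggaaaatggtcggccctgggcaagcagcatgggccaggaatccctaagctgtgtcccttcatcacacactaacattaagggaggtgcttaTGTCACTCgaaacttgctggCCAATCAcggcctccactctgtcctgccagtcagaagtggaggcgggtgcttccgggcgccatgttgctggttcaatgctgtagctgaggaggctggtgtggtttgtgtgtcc
Zfp932, chr5:109996260-109996559, plus strand, lower in knockout: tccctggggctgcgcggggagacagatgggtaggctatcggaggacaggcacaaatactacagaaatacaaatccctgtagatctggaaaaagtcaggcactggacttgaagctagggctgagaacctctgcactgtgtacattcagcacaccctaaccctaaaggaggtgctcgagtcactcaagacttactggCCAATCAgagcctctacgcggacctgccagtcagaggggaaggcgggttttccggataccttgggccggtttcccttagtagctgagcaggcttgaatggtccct
Zfp799, chr17:32830212-32830511, minus strand, lower in knockout: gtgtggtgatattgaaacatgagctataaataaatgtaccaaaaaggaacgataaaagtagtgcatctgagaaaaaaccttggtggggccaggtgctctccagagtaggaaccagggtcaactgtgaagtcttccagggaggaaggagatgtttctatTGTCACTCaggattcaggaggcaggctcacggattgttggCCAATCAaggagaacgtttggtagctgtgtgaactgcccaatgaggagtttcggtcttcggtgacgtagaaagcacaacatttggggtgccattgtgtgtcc
Zfp869, chr8:69716853-69717152, minus strand, higher in knockout: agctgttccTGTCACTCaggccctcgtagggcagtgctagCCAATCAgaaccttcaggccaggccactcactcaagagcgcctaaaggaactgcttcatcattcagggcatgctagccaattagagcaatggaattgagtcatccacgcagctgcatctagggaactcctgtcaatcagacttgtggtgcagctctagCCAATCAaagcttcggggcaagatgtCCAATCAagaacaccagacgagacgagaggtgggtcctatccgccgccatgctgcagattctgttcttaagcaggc
Zfp953, chr13:67360523-67360822, minus strand, lower in knockout: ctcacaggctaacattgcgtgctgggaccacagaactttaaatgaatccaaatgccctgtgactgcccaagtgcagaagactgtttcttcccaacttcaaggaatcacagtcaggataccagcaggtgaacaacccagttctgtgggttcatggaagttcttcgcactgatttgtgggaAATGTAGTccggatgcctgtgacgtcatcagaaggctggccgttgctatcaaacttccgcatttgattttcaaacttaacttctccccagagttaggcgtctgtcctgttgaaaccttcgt
Zfp383, chr7:29908267-29908566, plus strand, higher in knockout: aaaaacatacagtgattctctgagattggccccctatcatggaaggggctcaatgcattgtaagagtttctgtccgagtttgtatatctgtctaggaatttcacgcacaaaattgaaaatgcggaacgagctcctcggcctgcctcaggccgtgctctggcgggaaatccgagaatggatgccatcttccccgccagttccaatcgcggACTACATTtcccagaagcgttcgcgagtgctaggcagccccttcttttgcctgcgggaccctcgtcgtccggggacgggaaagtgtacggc

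The promoters of Zfp975 and Zfp936, both on chromosome 7, were the most alike of the 7. They were identical at 88.4% of 251 aligned positions and shared an unbroken stretch of 32 bases. The other 20 pairs among the 7 promoters had identities of 60.5% to 71.6% and longest shared stretches of 7 to 15 bases. A promoter entry was found for 217 of the 263 members and for 14367 of all genes. TGTCACTC stood in the promoters of 23 members (10.6%), against 1.63% of all genes with a promoter. AATGTAGT stood in 25 members (11.5%), 14 of them on chromosome 7, against 1.45% of all genes. CCAATCA stood in 43 members (19.8%) against 9.61%, and the ETS-type word ACTTCCG in 47 (21.7%) against 9.97%. The TATA word TATAAA stood in 14 members (6.45%), against 9.85%. These words were picked after the members' promoters had been compared with those of all genes, so their excess was not tested and a match is not a binding site.

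The words were found in members that moved either way. Of the 23 members with TGTCACTC, 3 rose, 9 fell and the others were not called. Of the 25 with AATGTAGT, 1 rose (Zfp383) and 3 fell, and of the 43 with CCAATCA, 4 rose and 12 fell. Of all members 11.8% rose and 30.4% fell, and of all genes 12.5% and 17.5%. Whether carriers of a word differ from the other members was not tested. CpG dinucleotides numbered a median of 16 per 300-base promoter in the members and 17 in all genes. The median was 20.5 CpG in the members called higher and 14 in those called lower. Among all genes, those called higher had a median of 21 CpG and those called lower 22. Whether these counts bear on the changes was not tested.

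The arrays were alike in level. Their medians over all probe sets were 4.51 to 4.57 on the log2 scale, and Pearson's r across genes, which are not independent replicates, was 0.997 to 0.998 within a genotype and 0.989 to 0.991 between genotypes. Sirt1 read log2 levels of 10.12, 10.13 and 10.23 in the wild type and 8.02, 7.94 and 8.20 in the knockout. It fell by 2.11 on the log2 scale (SE 0.08, 4.31-fold lower, limma with Benjamini-Hochberg adjusted p = 3.98e-05), and by exact permutation, two-sided, p = 0.1, which no comparison of 3 with 3 arrays can go below. Whether its probe set lies in the deleted stretch was not tested. All 9 embryonic stem cell markers were brighter than the median of all genes. Of these 9, 4 fell, and their mean log2 level was 11.84 to 11.87 over the wild-type arrays and 11.61 to 11.64 over the knockout arrays. The 6 endoderm markers had mean levels of 5.18 to 5.23 in wild type and 4.36 to 4.54 in knockout, with 4 lower. The 4 neuroectoderm markers read 5.26 to 5.33 and 5.55 to 5.65, with 2 higher. The 8 fibroblast markers, of which 2 rose and 2 fell, read 5.28 to 5.42 and 5.26 to 5.41. None of the 3 mesoderm markers measured was called, with means of 4.37 to 4.74 and 4.63 to 4.72, and 1 of 4 trophectoderm markers was lower, with means of 5.11 to 5.24 and 4.92 to 5.08. The part of such cell states in the results below was not tested.

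More members were lower than higher in the knockout. Of the 263 members, 80 (30.4%) fell and 31 (11.8%) rose in limma (Benjamini-Hochberg adjusted p under 0.05), and 152 were not called. Among all 18193 genes tested, 17.5% fell and 12.5% rose, 30.0% in either direction. The members' share of rises was thus close to the background, and their share of falls lay above it. The members were chosen with earlier results of these data known, so this excess was not tested. Their median log2 change was -0.12, against -0.01 over all genes, and 170 members (64.6%) had a change below 0, against 53.2% of all genes. In bulk RNA, fewer cells of a type and less RNA per cell cannot be told apart. The median log2 level over the members was 6.29, 6.29 and 6.35 on the wild-type arrays and 6.07, 6.13 and 6.22 on the knockout arrays. These medians did not overlap, and every knockout array lay below every wild-type array.

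Most of the changes were small. The median absolute log2 change of the called members was 0.47, against 0.39 for all called genes. Only 4 members were called with a change of at least 2-fold, namely Zfp991, which was higher, and Zfp932, Zfp975 and Zfp287, which were lower. Over all genes, 1.93% were called at that size. The 3 knockout and the 3 wild-type values did not overlap for 144 members (54.8%), against 43.8% of all genes. The median within-group SD of a member was 0.10 on the log2 scale.

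**Figure D1:**
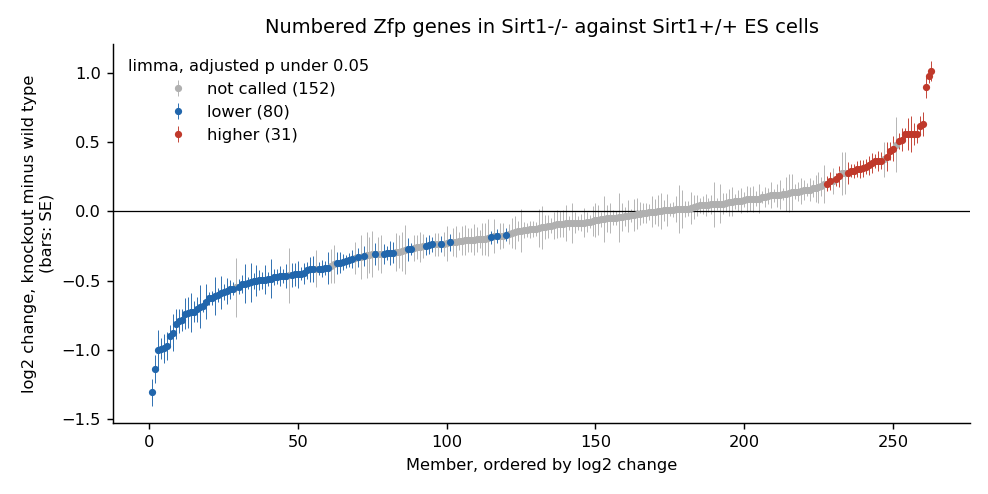
Each point is 1 of the 263 members, ordered along the horizontal axis by its log2 change (knockout minus wild type, vertical axis), with its standard error. The 80 members called lower extend to -1.30 and the 31 called higher to 1.01, and the 152 not called lie mostly between them.

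The excess of falls was seen in bright and in dim members. Of the 153 members whose brighter group mean lay above the median of all genes (5.83 on the log2 scale), 60 (39.2%) fell and 29 (19.0%) rose. Of all genes in that range, 27.3% fell and 21.4% rose. Of the 110 dimmer members, 20 (18.2%) fell and 2 (1.8%) rose, against 7.1% and 3.0% of dim genes.

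Other zinc finger gene families are given side by side, with no test of the differences between them. Of 70 Zfp genes with 1 or 2 digits or a letter, 28 fell and 5 rose, with a median log2 change of -0.18. Of 20 Zkscan and Zscan genes, which encode proteins with a SCAN domain before the fingers, 10 fell and 1 rose, with a median of -0.20. Of 40 Zbtb genes, whose products carry a BTB domain, 10 fell and 3 rose, with a median of -0.06.

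**Figure D2:**
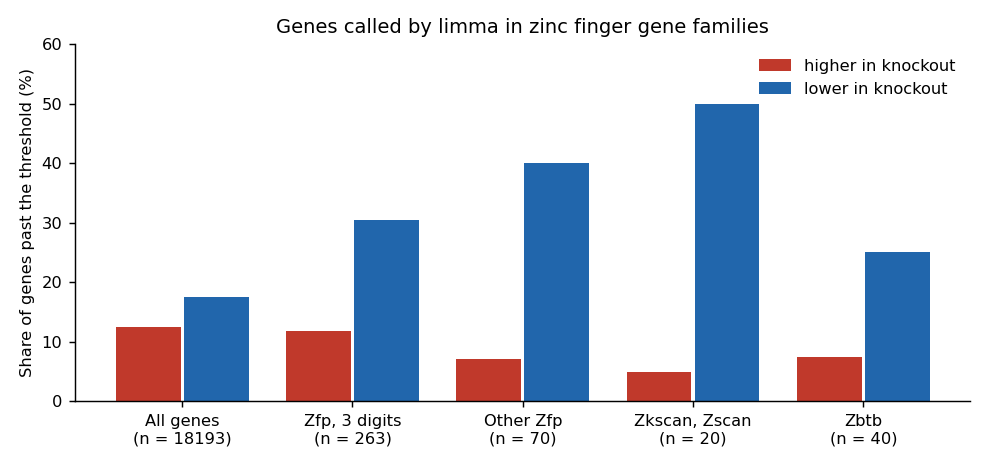
Bars give the percentage of genes called higher (red) or lower (blue) in the knockout, for all genes, the members (Zfp with 3 digits) and 3 other zinc finger families, with the number of genes under each pair. The members stand at 11.8% higher and 30.4% lower, beside 12.5% and 17.5% of all genes.

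Zfp932, a KRAB zinc finger protein known to bind and repress endogenous retroviruses in embryonic stem cells, fell most. Its log2 levels were 7.73, 7.49 and 7.51 in the wild type and 6.24, 6.16 and 6.43 in the knockout. The groups lay more than 1 log2 unit apart. The log2 change was -1.30 (SE 0.10, 2.47-fold lower, limma with Benjamini-Hochberg adjusted p = 0.000246). Its promoter, printed above, has CCAATCA and lacks TGTCACTC.

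Zfp975 and Zfp936, the pair with the most similar promoters of those printed, both fell. Zfp975 read log2 levels of 8.01, 7.95 and 8.02 in the wild type and 6.63, 6.96 and 6.96 in the knockout, a change of -1.14 (SE 0.10, adjusted p = 0.000414). It was read on a probe set of the type whose probes can match other transcripts (identifier ending _x_at), and its other probe set gave a log2 change of -1.22. Zfp936 had log2 levels of 7.07, 6.91 and 7.28 in the wild type, against 6.13, 5.99 and 6.17 in the knockout, a change of -0.99 (SE 0.10, adjusted p = 0.000763). For both genes every knockout array lay below every wild-type array. Whether probes of one gene also read the other was not tested.

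Zfp770 on chromosome 2 had wild-type log2 levels of 8.33, 8.27 and 8.47 and knockout levels of 7.28, 7.48 and 7.33. This is a change of -0.99 (SE 0.08, adjusted p = 0.000282), which sits just short of 2-fold. A dimmer probe set of Zfp770 had a log2 change of -0.34 and was not called (adjusted p = 0.0842). Zfp799 on chromosome 17 read 8.16, 7.94 and 8.20 in the wild type and 7.02, 7.28 and 7.07 in the knockout, a log2 change of -0.97 (SE 0.10, adjusted p = 0.000735). Zfp871, in the same run of neighbouring genes, had the tightest arrays of the large falls, with log2 levels of 9.59, 9.58 and 9.61 in the wild type, against 8.93, 8.91 and 8.88 in the knockout. Its change was -0.68 (SE 0.04, adjusted p = 0.000144). Its dimmer probe sets gave smaller log2 changes of -0.26, which was called, and -0.27, which was not. The spread between arrays of 1 genotype was a small part of each of these differences.

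Of the other large falls, 3 lay on chromosome 13. These were Zfp934, with a log2 change of -0.81 (SE 0.11), Zfp953 with -0.79 (SE 0.09) and Zfp493 with -0.73 (SE 0.11). On chromosome 17, Zfp229 fell by 0.78 (SE 0.08) and Zfp942 by 0.88 (SE 0.14) on the log2 scale, and on chromosome 7 Zfp566 fell by 0.72 (SE 0.08). The adjusted p-values of these 6 were between 0.000728 and 0.00374 (limma, Benjamini-Hochberg). Dimmer probe sets of Zfp934 and Zfp493 had log2 changes of 0.04 and 0.15 and were not called, and the mean of each gene's probe sets gave -0.38 and -0.29. Zfp942 is uncertain, because a dim probe set of the same gene rose by 0.96 and the mean of its probe sets gave a log2 change of 0.04. Zfp287 fell by 1.001 on the log2 scale (SE 0.14), and was left out of the 12 largest falls by its level, since its brighter group mean of 5.82 lay just below the median of all genes. With the mean of its probe sets its change was -0.20.

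Zfp991 on chromosome 4 rose most. It read log2 levels of 8.011, 7.946 and 8.176 in the wild type and 9.049, 9.119 and 8.998 in the knockout, a change of 1.01 (SE 0.07, 2.02-fold higher, limma with Benjamini-Hochberg adjusted p = 0.00022). Its 2 dimmer probe sets had log2 changes of 0.26 and 0.00 and were not called, and the mean of all 3 gave 0.42. Zfp869 on chromosome 8, whose promoter is printed above, read 6.13, 6.06 and 6.19 in the wild type, against 7.08, 7.15 and 7.09 in the knockout, a log2 change of 0.98 (SE 0.05, adjusted p = 9.29e-05). Its 3 knockout values lay close together and above every wild-type value.

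Zfp652, a DNA-binding transcriptional repressor, read log2 levels of 7.31, 7.28 and 7.53 in the wild type and 8.20, 8.31 and 8.30 in the knockout. The change was 0.90 (SE 0.08, adjusted p = 0.00042), another probe set rose by 0.86, and one with -0.23 was not called. The mean of its probe sets gave 0.51. Among the other large rises, the log2 change was 0.63 for Zfp367 (SE 0.09), 0.62 for Zfp740 (SE 0.07) and 0.52 for the X-linked Zfp275 (SE 0.08). Zfp383, Zfp560 and Zfp180 each rose by 0.56 (SE 0.06, 0.08 and 0.11), and Zfp414 rose by 0.51 (SE 0.06). The adjusted p-values of these 7 ran from 0.00111 to 0.011 (limma, Benjamini-Hochberg). The wild-type and knockout arrays did not overlap for any of them. With the mean of its probe sets Zfp383 had a log2 change of 0.33. For Zfp560 the call was lost when its probe sets were averaged, with a log2 change of 0.09 (adjusted p = 0.603).

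**Figure D3:**
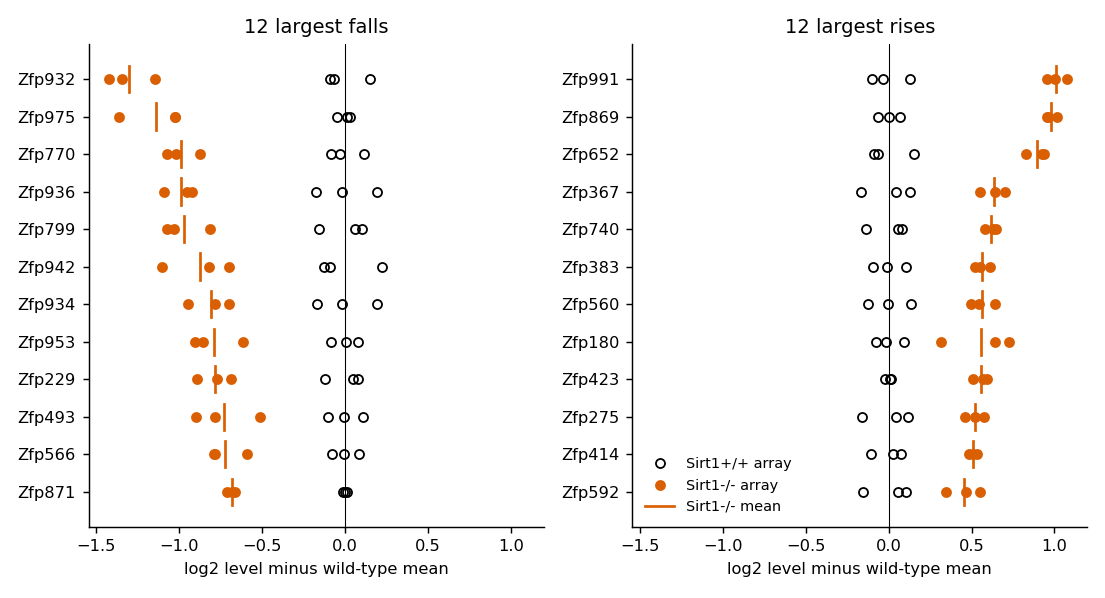
Each row is 1 of the 12 members with the largest falls (left) or rises (right) that met the rule on level and overlap, and each circle is 1 array, given as its log2 level minus the wild-type mean. Open circles are the 3 Sirt1+/+ arrays, filled circles the 3 Sirt1-/- arrays and bars the knockout means, and the filled and open circles do not overlap in any row.

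Of the members with a known part in silencing retroelements and imprinted genes, 3 of 5 fell and none rose. Of all genes 17.5% fell and 12.5% rose, and of genes above the median level 27.3% and 21.4%. Besides Zfp932, Zfp809, which binds the primer site of murine leukaemia viruses, read log2 levels of 8.42, 8.37 and 8.35 in the wild type and 7.80, 7.82 and 7.84 in the knockout. It fell by 0.56 (SE 0.05, adjusted p = 0.000334). Zfp568, which represses a placental transcript of Igf2, fell by 0.18 on the log2 scale (SE 0.05, adjusted p = 0.0331), and this call was lost when arrays were centred on their medians (adjusted p = 0.0903). It was also lost without wild-type array 1 or 2 or any 1 of the knockout arrays (adjusted p = 0.0699 to 0.113). With the replicate number as a block in the fit it was lost too (adjusted p = 0.0863). Zfp445, which protects imprints, had a log2 change of -0.13 and Zfp708 of -0.16, and neither was called (adjusted p = 0.15 and 0.153). With an intensity trend and robust variance Zfp445 was called lower (adjusted p = 0.0233), and with the mean of its probe sets Zfp568 was not called (-0.12).

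The list for the KAP1 pathway, through which KRAB proteins silence chromatin, held 27 symbols, with Tasor also under an older one. On the arrays 23 of its genes were measured. Of these, 9 (39.1%) fell and 4 (17.4%) rose, against 17.5% and 12.5% of all genes and 27.3% and 21.4% of genes above the median level. Tasor, a subunit of the HUSH silencing complex, fell by 0.66 and its partner Morc2a by 0.66. Smarcad1, a remodeller bound by KAP1, fell by 0.50, and Chd3 of the NuRD complex fell by 0.37 on the log2 scale. The Smarcad1 change was 0.09 with the mean of its probe sets. Atrx rose by 0.29, Atf7ip, a partner of SETDB1, by 0.28, Pphln1 by 0.27 and Cbx5, which encodes HP1 alpha, by 0.21. Trim28 itself read log2 levels of 12.52, 12.53 and 12.52 in the wild type and 12.35, 12.25 and 12.34 in the knockout, a change of -0.21 (SE 0.05, adjusted p = 0.0192). The Trim28 call was lost without any 1 of the wild-type arrays or without knockout array 2 (adjusted p = 0.0510 to 0.0647). With the replicate number as a block in the fit it was lost too (adjusted p = 0.0556). Setdb1 fell by 0.21 on the log2 scale (SE 0.06, adjusted p = 0.0401) and had a change of 0.08 with the mean of its probe sets. It lost its call without wild-type array 1 or 3 or any 1 of the knockout arrays. It also lost it with arrays centred on their medians and with the replicate block (adjusted p = 0.106 and 0.0832). The list as a whole had a median log2 change of -0.02. Its genes called lower numbered 5 without wild-type array 1 or 3, and those called higher 2 without knockout array 2 or 3, where Atrx was not called. With the mean of its probe sets, Cbx5 had a change of 0.04 (adjusted p = 0.571) and Pphln1 of 0.18 (adjusted p = 0.317), and neither was called. Pphln1 also lost its call without wild-type array 1 or 2 or any 1 of the knockout arrays (adjusted p = 0.0702 to 0.111).

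Of 8 listed members tied to pluripotency or the early embryo, 6 were measured, 2 (33.3%) fell and none rose. This share of falls stands beside 17.5% of all genes and 27.3% of genes above the median level. Zfp296, which is enriched in pluripotent cells, read log2 levels of 8.57, 8.49 and 8.67 in the wild type and 7.97, 8.02 and 7.99 in the knockout, a change of -0.58 (SE 0.06, adjusted p = 0.000718). Zfp217 fell by 0.24 (SE 0.05, adjusted p = 0.0155), a call lost without wild-type array 2 or knockout array 2 (adjusted p = 0.0503 and 0.0558). With the replicate number as a block in the fit Zfp217 was not called (adjusted p = 0.0520). Zfp281, a regulator of the exit from naive pluripotency, had a log2 change of -0.13 and was not called (adjusted p = 0.108), whereas another of its probe sets fell by 0.38. It was called lower with the mean of its probe sets (-0.26), with the dimmest 40% of genes removed and with an intensity trend and robust variance (adjusted p = 0.0141 to 0.0411). Zfp219, Zfp462 and Zfp819 had log2 changes of 0.07, 0.11 and 0.17 and were not called. Zfp462 was called higher with the intensity trend (adjusted p = 0.0426) and Zfp819 with the dimmest genes removed (adjusted p = 0.0444).

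Among lineage regulators, 7 of 8 listed members were measured, 2 (28.6%) rose and none fell. This share of rises stands beside 12.5% of all genes and 21.4% of genes above the median level. Zfp423, a cofactor of EBF and SMAD proteins in fat and neural precursors, read log2 levels of 6.92, 6.91 and 6.89 in the wild type and 7.42, 7.50 and 7.47 in the knockout. Its change was 0.56 (SE 0.05, adjusted p = 0.000357). Zfp423 lies on chromosome 8, where 33.6% of all genes rose. Zfp516, an activator of brown fat genes, rose by 0.44 (SE 0.07, adjusted p = 0.00321). The neural regulators Zfp521, Zfp503 and Zfp536 had log2 changes of -0.02, -0.08 and -0.31, and Zfp703 and the epidermal regulator Zfp750 had 0.17 and -0.24. None of these 5 was called.

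Cofactors of chromatin and transcription changed in both directions, with 5 of the 9 measured members (55.6%) higher and 3 (33.3%) lower. Of all genes 12.5% rose and 17.5% fell, and of genes above the median level 21.4% and 27.3%. Zfp592 and Zfp687, which share a complex with Zmynd8, rose by 0.45 and 0.30. The Zfp592 call was lost with the mean of its probe sets, and a dimmer probe set fell by 0.39 on the log2 scale. Zfp335 rose by 0.32, Zfp410, an activator of Chd4, by 0.31 and the GC-box protein Zfp148 by 0.29, where Zfp148 was not called with the mean of its probe sets (adjusted p = 0.0661). Chd4 itself fell by 0.24 (SE 0.07, adjusted p = 0.0485). The Zfp410 call was lost without knockout array 3 (adjusted p = 0.0513), and the Chd4 call without any 1 of the wild-type arrays or without knockout array 1 or 3 (adjusted p = 0.0824 to 0.131). Chd4 was also not called with arrays centred on their medians or with the replicate number as a block (adjusted p = 0.103 and 0.0855). Zfp711, a partner of the demethylase PHF8, fell by 0.50, Zfp827 by 0.41 and Zfp384 by 0.27 on the log2 scale. The adjusted p of Zfp827 was 0.0419, and it was 0.0605 when quantile normalisation was repeated and 0.0647 to 0.124 without any 1 of the wild-type arrays or without knockout array 1 or 2. It was 0.0564 with arrays centred on their medians and 0.0891 with the replicate number as a block. Zfp644, a partner of the G9a methyltransferases, had a log2 change of 0.16 and was not called, although a dimmer probe set rose by 0.41. It was called higher with the dimmest 40% of genes removed (adjusted p = 0.0167) and with an intensity trend and robust variance (adjusted p = 0.0126). With the mean of their probe sets Zfp711 and Zfp827 had log2 changes of -0.23 and -0.25.

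Members that act on RNA, ribosomes or the spindle were split, with 3 of 9 (33.3%) higher and 3 (33.3%) lower. Of all genes 12.5% rose and 17.5% fell, and of genes above the median level 21.4% and 27.3%. Zfp622, a factor of large ribosomal subunit maturation, was the brightest member. Its log2 levels were 12.23, 12.29 and 12.18 in the wild type and 11.88, 11.78 and 11.81 in the knockout, a change of -0.41 (SE 0.05, adjusted p = 0.00184). Of its other probe sets, 2 fell by 0.42 and 0.47. With the mean of all its probe sets the change of Zfp622 was -0.24. Zfp638, which silences unintegrated retroviral DNA, fell by 0.50 (-0.25 with the mean of its probe sets, -0.78 without shared ones) and Zfp830 by 0.24, and the change of Zfp830 was -0.03 with the mean of its probe sets (adjusted p = 0.840). Zfp830 was not called with arrays centred on their medians, nor without wild-type array 2 or 3 or any 1 of the knockout arrays (adjusted p = 0.0602 to 0.103). Zfp326, which works with the Sirt1 inhibitor Ccar2 in coupling transcription to splicing, rose by 0.37 on the log2 scale (SE 0.06). The spindle protein Zfp207 rose by 0.29, but its log2 change was 0.05 with the mean of its probe sets (adjusted p = 0.697) and -0.05 on the brightest probe set not shared between transcripts. Zfp598, the sensor of collided ribosomes, the SUMO ligase Zfp451 and the double-stranded RNA binder Zfp346 had changes of 0.14, 0.10 and -0.05 and were not called. Zfp598 was called higher with the dimmest 40% of genes removed (adjusted p = 0.0330) and with an intensity trend and robust variance (adjusted p = 0.0129).

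Zfp106, an RNA-binding protein needed by motor neurons, differed between its probe sets. On its brightest one the log2 levels were 10.93, 10.85 and 10.97 in the wild type and 11.27, 11.29 and 11.27 in the knockout, a rise of 0.36. A dimmer probe set read 4.81, 4.41 and 4.83 in the wild type, against 6.45, 6.82 and 6.63 in the knockout, a rise of 1.95 (SE 0.14), and another rose by 0.82. Yet another fell by 0.20 on the log2 scale. Probe sets of 1 gene can lie on different transcript ends, and which end each one reads was not tested. The other members among the brightest 5 were Zfp982, with a change of -0.47, Zfp330, with 0.05, and Zfp568. Zfp982 was read on a probe set whose probes can match other transcripts, and its change was 0.27 (adjusted p = 0.0662) on a probe set of its own.

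Such splits were found for 5 called members. The 263 members had 497 probe sets, and 133 had more than 1. Of 111 further probe sets of called members, 27 were called in the same direction and 6 in the opposite one. Besides Zfp106, Zfp592 and Zfp942 these concerned Zfp787 and Zfp655. On its brightest probe set Zfp655 fell by 0.30, and on another it read 6.51, 6.48 and 6.52 in the wild type and 7.56, 7.79 and 7.68 in the knockout, a rise of 1.17 on the log2 scale (SE 0.07). The direction of Zfp655 thus depended on the probe set, and the mean of its probe sets rose by 0.23 (adjusted p = 0.00985). For Zfp787 the brightest probe set rose by 0.39, a dimmer one rose by 0.90, 2 more fell by 0.49 and 0.49, and the mean of all its probe sets gave 0.13 (adjusted p = 0.0889). The rise on the brightest one was not past the threshold without wild-type array 2 or 3 or knockout array 1 or 2 (adjusted p = 0.0868 to 0.0965).

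Falls were frequent among the members of chromosome 17. Of its 30 members, 17 (56.7%) fell and 2 rose, with a median log2 change of -0.37. Of all 834 genes read on chromosome 17, 19.5% fell and 11.3% rose, with a median of -0.02. On chromosome 7, which held 68 members, 21 (30.9%) fell and 5 rose, against 16.8% and 10.1% of its genes. On chromosome 13, 6 of 20 members (30.0%) fell and 1 (5.0%) rose, against 18.1% and 7.4% of its genes. With the members of chromosome 17 left out, a choice made after the data were seen, 63 of 233 members fell, 29 rose and the median was -0.09.

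On chromosome 8 rises were frequent among all genes. Of the 932 read there, 33.6% rose and 10.5% fell, with a median log2 change of 0.08. Of its 20 members 4 (20.0%) rose, 2 fell and the median was 0.02. The risers were Zfp869 and Zfp423, described above, Zfp930 with 0.33 and Zfp961 with 0.31 (not called with the mean of its probe sets, adjusted p = 0.0513), and Zfp958 fell by 0.47 and Zfp827 by the value above. With the genes of chromosome 8 left out of the fit, 26 members were called higher and 78 lower.

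**Figure D4:**
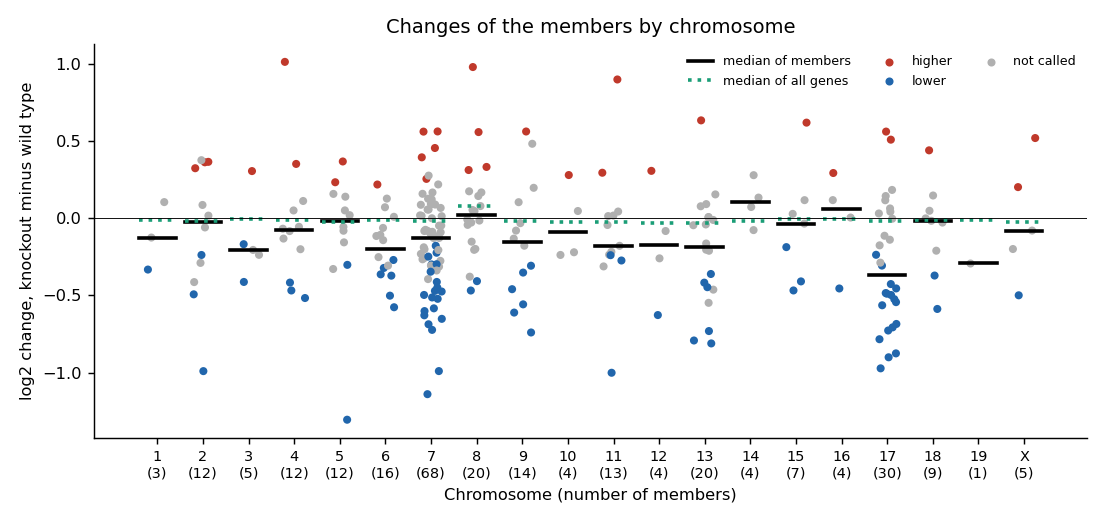
Each point is the log2 change of 1 member (knockout minus wild type, vertical axis), grouped by chromosome with the number of members in parentheses, with spread within a column for display only. Black lines are the medians of the members and dotted green lines those of all genes of that chromosome, and the widest gap among chromosomes with at least 20 members is on chromosome 17, at -0.37 against -0.02.

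Members that lie side by side did not all move together. A run was defined as at least 4 members with at most 3 other protein-coding genes between neighbours, and 13 such runs held 81 members. Of these 24 (29.6%) fell and 7 rose, and of the 182 members outside runs 56 (30.8%) fell and 24 rose. Of all genes 17.5% fell and 12.5% rose. The longest run, 13 members on chromosome 17, had 6 lower and 1 higher. Of all genes read on that chromosome 19.5% fell and 11.3% rose. In gene order, Zfp948 was not called (0.12), Zfp983 rose by 0.56, and Zfp760 and Zfp229 fell by 0.56 and 0.78. Zfp820 was not called (-0.18), and Zfp995 and Zfp942 fell by 0.50 and 0.88. Zfp943, Zfp994 and Zfp944 had log2 changes of 0.03, 0.04 and 0.06. Zfp758 fell by 0.90, Zfp946 was not called (-0.29) and Zfp945 fell by 0.45. Members that fell and members near 0 were thus neighbours. The call of Zfp983, which was dim at a mean log2 level of 4.77 in knockout, was lost with the mean of its probe sets and without wild-type array 1 or 2 (adjusted p = 0.0702 and 0.0645). Without knockout array 3, Zfp946 was called lower (-0.45).

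Another run of chromosome 17 held 8 members, of which 5 fell and none rose, with a median log2 change of -0.53. Of all genes of chromosome 17, 19.5% fell and 11.3% rose. In gene order, Zfp871, Zfp811 and Zfp799 fell by 0.68, 0.73 and 0.97. Zfp870 (-0.14), Zfp472 and Zfp952 (0.18) followed and were not called, and Zfp763 and Zfp563 fell by 0.54 and 0.52. Zfp472 read log2 levels of 7.71, 7.56 and 7.70 in the wild type and 7.67, 7.66 and 7.62 in the knockout, so its groups overlapped while members on both sides fell. Zfp952 was called higher without wild-type array 3 (0.24), with quantile normalisation repeated (0.22) and with the dimmest 40% of genes removed (adjusted p = 0.0407 to 0.0482).

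**Figure D5:**
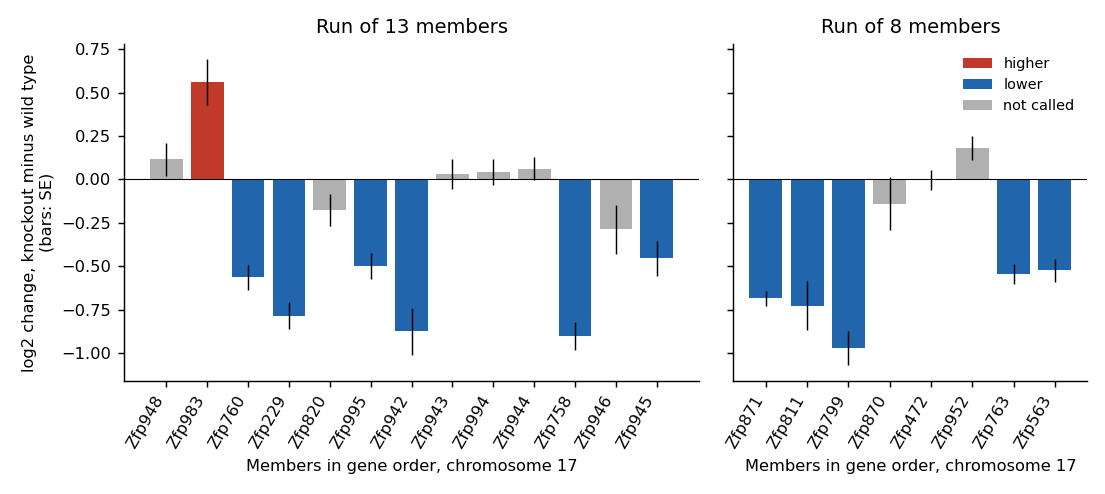
Bars give the log2 change (knockout minus wild type, with its standard error) of the members of 2 runs on chromosome 17, in gene order. The run of 13 has 6 bars called lower and 1 called higher, and the run of 8 has 5 called lower, with members not called between them. Of all genes of chromosome 17, 19.5% were called lower and 11.3% higher.

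The other runs of 8 had fewer calls. Of all genes of chromosome 13, 18.1% fell and 7.4% rose, and of those of chromosome 6, 15.3% and 10.3%. On chromosome 13, Zfp953 fell and the other 7 were not called on their brightest probe sets. These were Zfp712 (0.01), Zfp708, Zfp759 (-0.55), Zfp455 (0.01), Zfp458 (-0.46), Zfp595 (-0.04) and Zfp429 (-0.20). Zfp759 and Zfp458 were dim and had wide errors (SE 0.21 and 0.20) and their calls depended on the setting. Both were called lower with an intensity trend and robust variance (adjusted p = 0.0229 and 0.0408), Zfp759 also with the mean of its probe sets (-0.46, adjusted p = 0.0276) and Zfp458 without wild-type array 1 (-0.70). Zfp595 had a dimmer probe set that fell by 0.67, and it was called lower with the mean of its probe sets (-0.36, adjusted p = 0.0247). On chromosome 6, Zfp212 fell by 0.32 and Zfp746 by 0.36 on the log2 scale. The 6 members not called there, Zfp786, Zfp398, Zfp282, Zfp956, Zfp777 and Zfp467, had log2 changes between -0.25 and 0.07. The Zfp212 call was lost without wild-type array 1 (adjusted p = 0.0566), and Zfp282 and Zfp956 were called lower without knockout array 3 and wild-type array 3, respectively. Zfp956 was also called lower with the dimmest 40% of genes removed (adjusted p = 0.0377).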

How the data were processed

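RNA of 3 Sirt1+/+ and 3 Sirt1-/- samples was measured on 6 arrays, grouped by the genotype in the labels. Per the submitters' processing notes, the authors used Partek 6.5 and RMA, and the values they deposited are log2 levels, as their range shows. Their settings and annotation were not given in the sources used here. RMA normalises arrays by quantiles and pulls low levels together, so changes of dim probe sets are understated. Precision is limited by having 3 arrays per genotype.

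Of 45101 probe sets, 64 controls, 932 with several symbols and 9160 with none were left out of the gene comparison, and 34945 with 1 symbol gave 18193 genes. By Entrez identifier 18031 of them matched RefSeq on GRCm38.p6, which gave chromosomes and gene order, and 3 members were not placed among its protein-coding genes. All genes were fitted with R 4.3.3 and limma 3.58.1 (lmFit, then eBayes, two-sided, no replicate block), with Benjamini-Hochberg adjustment at 0.05. Before moderation each gene had 4 residual degrees of freedom. At least 2-fold means in addition an absolute log2 change of 1. The procedure was tested on simulated data. It recovered 2% of genes with a log2 change of 0.25, 72% with 0.5 and 100% with 1, with 4 false calls. Far fewer genes changed in the simulation than were called here, so recovery on these arrays may differ. Promoters come from RefSeq.

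The members and lists were chosen with earlier results of these data known, so counts over them are descriptions beside all genes, with no set test. The rule named Sirt1; the 12 members that rose most and the 12 that fell most, taken from called members whose groups do not overlap and whose brighter mean exceeds the all-gene median; the brightest 5 members; every member of 5 role lists; up to 4 KAP1 pathway genes each way; called members on chromosome 8; and the members of the longest runs, where 3 runs of 8 members tied for the second place. Zfp287, Zfp655, Zfp787, Trim28, Setdb1 and Chd4 were named after their values were seen, as were the promoter words. A planned sorting of members by protein features was not run, since protein sequences were not used here. The listed Zfp143, Zfp488, Zfp609 and Zfp706 were not analysed among the members.

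The alternatives were repeated quantile normalisation, arrays centred on their medians, the dimmest 40% of genes removed, the mean of all probe sets, an intensity trend with robust variance, a block for the replicate number, single arrays left out, an adjusted p under 0.01, chromosome 8 left out, and probe sets shared between transcripts left out.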

Additional observations from a re-analysis of the deposited data

How the results depend on the processing

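More members fell than rose under all alternatives run. Over all genes more fell than rose too, 17.5% against 12.5% in the main fit. Shares of all genes under the alternatives were not taken, so whether the members' excess over all genes held was not tested. The members' counts of rises and falls stayed within 1.5 times the main ones, except at an adjusted p under 0.01. There 19 members rose and 51 fell (limma, Benjamini-Hochberg). With 1 array left out, 25 to 31 members rose, 65 to 74 fell, 4 to 5 were called at 2-fold, and the median log2 change was -0.13 to -0.11. With the mean of all probe sets, 2 members were called at 2-fold. The counts of the KAP1 pathway moved more. Its genes called higher numbered 2 with the mean of all probe sets, 1 at an adjusted p under 0.01 and 2 to 4 with 1 array left out, the lowest without knockout array 2 or 3. Those called lower numbered 5 at an adjusted p under 0.01, 5 without probe sets shared between transcripts and 5 to 7 with 1 array left out, the lowest without wild-type array 1 or 3. Log2 changes turned their sign for Zfp942 (0.0391), Smarcad1 (0.0889), Setdb1 (0.0765) and Zfp655 (0.229) with the mean of all probe sets, and for Zfp982 (0.272), Zfp207 (-0.0496) and Setdb1 (0.150) without shared probe sets. Of these only Zfp655 was called there, and the cause was not tested. Like-numbered arrays of the genotypes deviated from their group means with correlations across genes of 0.0515, -0.0865 and 0.198. Genes are not independent replicates, so these values cannot decide whether like-numbered samples were paired. The labels do not say it either. With the replicate number as a block, 28 members rose, 75 fell and 5 KAP1 pathway genes fell. Dim members have changes that RMA understates, which limits what can be said of members not called.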

Other observations

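Some members share probe sets with other genes and so stood outside the comparison. Of 20 probe sets with several symbols that include a numbered Zfp name, 4 were higher and 4 lower in the knockout (limma, Benjamini-Hochberg over 45037 probe sets at 0.05). The share called over all those probe sets was not taken. In the gene comparison, which used 1 probe set per gene, 12.5% of all genes rose and 17.5% fell. Of the 4 higher probe sets, 3 belong to the same pair, Zfp706 and Gm10193. Zfp706, listed among the members tied to pluripotency or the early embryo, shares its probe sets with Gm10193. The one with the clearest difference read log2 levels of 10.38, 10.33 and 10.38 in the wild type and 10.94, 10.94 and 10.94 in the knockout, a rise of 0.58. Other probe sets of this pair rose by 0.63 and 0.24, so all 3 called ones moved the same way. A probe set of Zfp960 and Zfp97 read 10.59, 10.55 and 10.52 in the wild type and 9.61, 9.83 and 9.81 in the knockout, a log2 change of -0.80. A bright one shared by Rex2, Zfp980 and Zfp600 had a mean log2 level of 12.13 in the wild type and 11.71 in the knockout, a change of -0.43. One that matches Zfp965, Zfp966, Zfp967, Zfp971, Zfp973 and predicted genes rose by 0.48. Which gene of each group gave the signal cannot be told apart on these probe sets.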
